A study of Mus musculus with 2 samples.

Results

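Mir375, a miRNA gene of endocrine cells, was compared with Mir216a, Mir216b and Mir217, a group of miRNA genes of pancreatic acinar cells, in whole stomach of mouse embryos. The 4 genes were taken by symbol from the 1973 miRNA genes of the deposited tables, and all 4 were listed. The study sequenced RNA of under 30 nt in stomach of strain B6NCrl at embryonic day 15.5, from healthy embryos of both sexes pooled together. Replicate 1 held the stomachs of 78 embryos and replicate 2 those of 62, and they form 1 group with no second condition. The labels name no transgene or treatment. Each value is therefore a level of a whole organ averaged over a pool.

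miR-375 is known from pancreatic islets, where it restrains insulin secretion and is needed for a normal endocrine cell mass, and it is also made by enteroendocrine and other epithelial cells of the gut. miR-216a, miR-216b and miR-217 are known as products of the exocrine pancreas, where acinar cells make and secrete digestive enzymes. Stomach and pancreas both arise from the foregut and lie side by side in the embryo. A bulk measurement cannot tell fewer cells of a type from less miRNA per cell.

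The genes lie at unlinked loci (mm10). Mir375 (ENSMUSG00000065616) lies on chromosome 1, 74900658 to 74900721, minus strand, in no other annotated gene, with the coding genes Cryba2 7515 bases and Cfap65 1350 bases away. The acinar genes lie on the plus strand of chromosome 11 within 17645 bases. Mir216b (ENSMUSG00000076318) comes first, at 28746191 to 28746276. Mir216a (ENSMUSG00000065539), at 28757012 to 28757083, starts 10736 bases after the end of Mir216b, and Mir217 (ENSMUSG00000065415), at 28763728 to 28763835, starts 6645 bases after Mir216a. In GENCODE M21 Mir216a and Mir217 are intronic in the long noncoding RNA gene Gm12082, while Mir216b lies outside it and inside the span of Mir217hg in RefSeq.

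All 4 genes had RefSeq sequences (GRCm38.p6, the same coordinates as GENCODE). The mature sequences are shown because reads of genes with shared sequence can match several places and leave the counts. Capitals mark the seed, the stretch of bases 2 to 8 that pairs with targets, and all run 5′ to 3′. The RefSeq sequences used held no entry for miR-375-3p, so that arm is named here without its own line. The seed shown for miR-375 is therefore that of its 5p arm only.
miR-375-5p: gCGACGAGccccucgcacaaac
miR-216a-5p: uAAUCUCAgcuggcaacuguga
miR-216b-5p: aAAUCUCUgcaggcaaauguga
miR-217-5p: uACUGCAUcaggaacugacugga
None of these seeds was shared with another mature mouse miRNA in the RefSeq table, and each whole sequence was found in 1 hairpin only, that of its own gene. The same held for miR-216a-3p, miR-216b-3p and miR-217-3p, which are not printed. This check was not run on miR-375-3p. Counts are per gene and not per arm, so the share of Mir375 counts that the check covers is not known here.

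miR-216a-5p and miR-216b-5p are the closest pair among them. They were identical at 18 of 22 positions, and the bases that differ are in capitals here.
miR-216a-5p: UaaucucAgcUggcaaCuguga
miR-216b-5p: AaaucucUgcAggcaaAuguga
Counted from 1 at the 5′ end, with the miR-216a base first, the differences are U1A, A8U, U11A and C17A, so 1 of the 4 lies in the seed.

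The Mir375 hairpin is shown because its composition sets it apart from the acinar hairpins. Capitals mark the 5p arm only, and the 3p arm lies unmarked in the rest.
Mir375 hairpin: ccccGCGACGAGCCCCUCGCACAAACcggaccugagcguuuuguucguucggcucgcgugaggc
Its 64 bases held 67.2% G and C and 10 CG dinucleotides. The acinar hairpins held 44.4% (Mir216a), 44.2% (Mir216b) and 38.0% (Mir217) G and C and 0 CG dinucleotides each. Among 869 hairpins of listed genes the median was 52.3% G and C, and 2.53% held as many CG dinucleotides as Mir375 or more.

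The library totals, sums over all miRNA genes on the sense strand, were 5988677 counts for replicate 1 and 6675498 for replicate 2. Levels are given as CPM, counts scaled to the same library total. A count of 0 would allow up to 0.501 CPM in replicate 1 and 0.449 CPM in replicate 2 (3 counts). This limit is one-sided. Intervals are exact two-sided 95% Clopper-Pearson intervals, so limit and intervals differ in kind where they are set side by side. Neither they nor this limit covers more than counting error, because they hold no spread between pools. The units counted were reads rather than molecules. Reads matching several places (25.5% and 27.0% of all reads) are not in the gene counts.

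Mir375 was among the most abundant miRNA genes of the stomach. It had 77112 counts in replicate 1 and 155010 in replicate 2. These are 12876 CPM (12786 to 12967) and 23221 CPM (23107 to 23335), or 1.29% and 2.32% of all sense counts. The mean was 18048 ± 7315 CPM (SD, n = 2). Mir375 was the 19th gene by level in replicate 1, the 9th in replicate 2 and the 14th by mean level. These ranks are among counts that leave out reads matching several places, so genes with such reads may rank too low. Its level in replicate 2 was well above that in replicate 1, and the counting intervals were far apart.

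The acinar genes stood near the limit of what these libraries can count. Mir217, the highest, had 19 counts in replicate 1 and 14 in replicate 2, or 3.17 CPM (1.91 to 4.95) and 2.10 CPM (1.15 to 3.52). Its mean was 2.63 ± 0.760 CPM (SD, n = 2), and its intervals overlapped.

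Mir216b had 5 and 9 counts, or 0.835 CPM (0.271 to 1.95) and 1.35 CPM (0.616 to 2.56), with a mean of 1.09 ± 0.363 CPM. In replicate 1 its interval reached below the level that a count of 0 allows. Mir216a had 11 and 2 counts, or 1.84 CPM (0.917 to 3.29) and 0.300 CPM (0.0363 to 1.08), with a mean of 1.07 ± 1.09 CPM. In replicate 2 Mir216a was under that limit.

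By mean level Mir217 was the 352nd, Mir216b the 421st and Mir216a the 423rd gene. Of the 1973 genes 1247 had no count in either library. Among the 726 with at least 1 count the median was 2.32 CPM, and 1 of the 3 acinar genes, Mir217, lay above it. The order Mir217, Mir216b, Mir216a held for the mean but not in each pool: in replicate 1 Mir216a was above Mir216b.

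**Figure D1:**
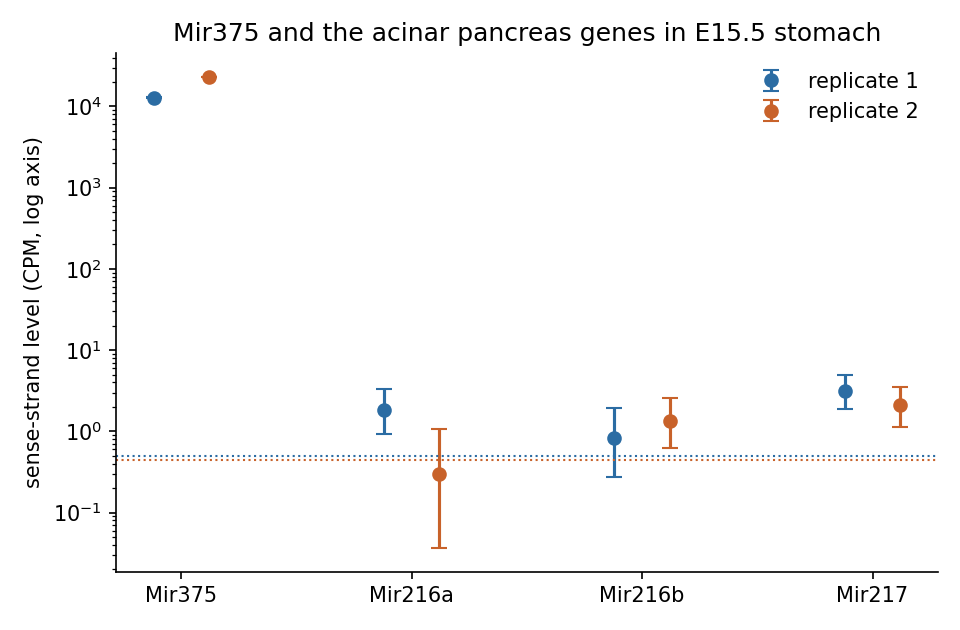
Sense-strand level in CPM (log axis) of Mir375, Mir216a, Mir216b and Mir217 in replicates 1 and 2; points are single libraries, bars exact 95% counting intervals, and dotted lines the limit that a count of 0 allows in each library. Mir375 stood at 12876 and 23221 CPM, while the acinar genes stood between 0.300 and 3.17 CPM.

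**Figure D2:**
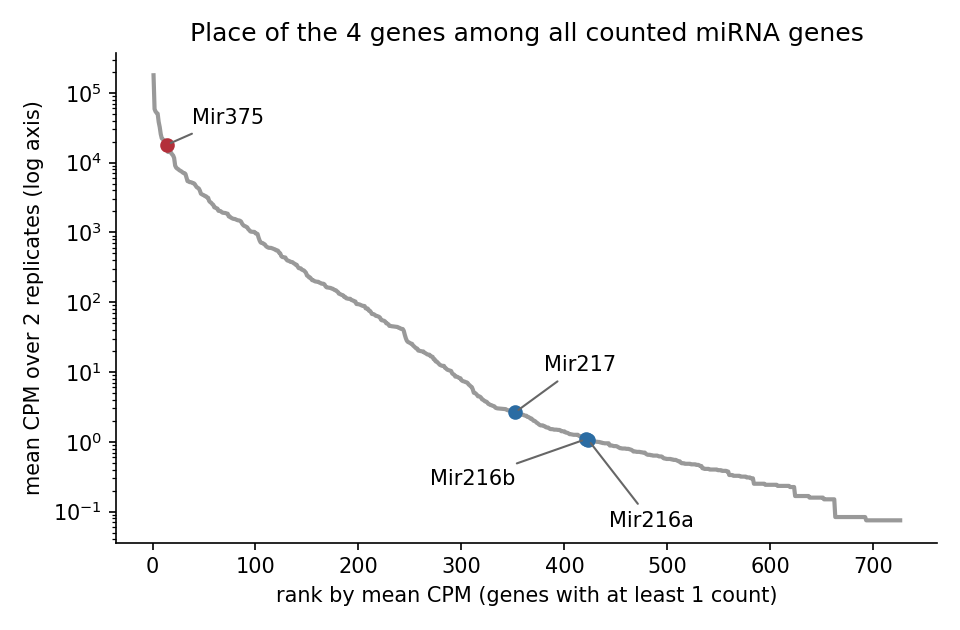
Mean CPM over 2 replicates (log axis) against rank for the 726 miRNA genes with at least 1 count (grey line), with the 4 genes as points. Mir375 lies at rank 14 and the acinar genes at ranks 352, 421 and 423.

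Within each library the Mir375 counts exceeded those of the acinar genes more than 1000-fold. All 3 acinar genes together had 35 counts in replicate 1, or 5.84 CPM (4.07 to 8.13), and 25 in replicate 2, or 3.75 CPM (2.42 to 5.53). Mir375 had 2203 counts for each acinar count in replicate 1 (1584 to 3163) and 6200 in replicate 2 (4200 to 9581). The log2 ratio was 11.85 ± 1.06 (SD, n = 2). A ratio within a library does not depend on the scaling between libraries, and its precision is set by the few acinar counts.

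Taken singly, the acinar genes gave ratios from 4059 to 77505. Against Mir217 Mir375 was 4059 times higher in replicate 1 (2599 to 6741) and 11072 times in replicate 2 (6599 to 20253). Against Mir216b it was 15422 times (6608 to 47499) and 17223 times higher (9073 to 37667). Against Mir216a it was 7010 times (3918 to 14043) and 77505 times higher (21455 to 639989), the last resting on 2 counts. The intervals of the pools overlapped for Mir216b and for Mir217 and were apart for Mir216a and for the sum.

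**Figure D3:**
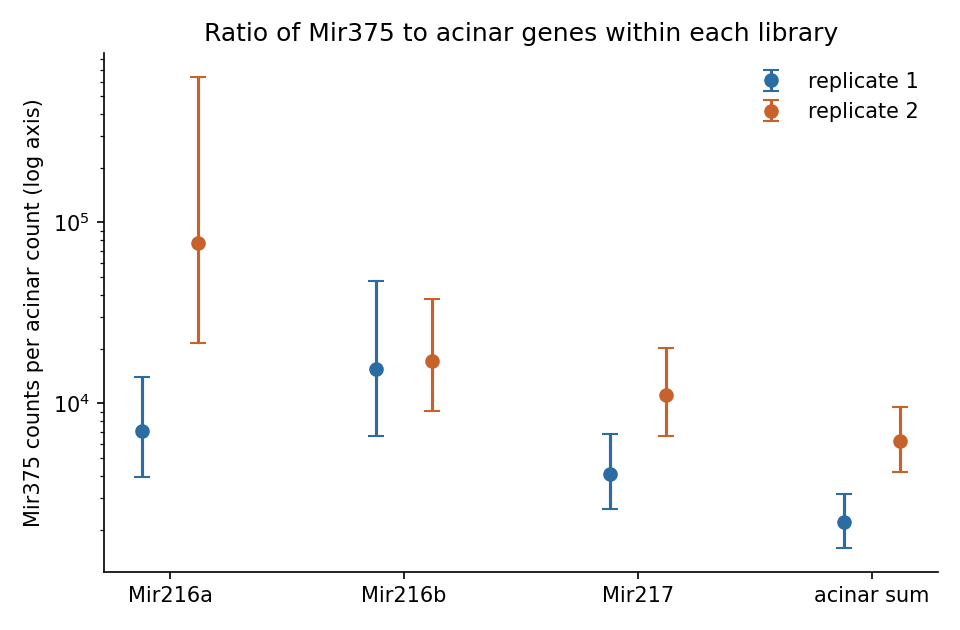
Mir375 counts per count of each acinar gene and of their sum (log axis), by replicate, with exact 95% counting intervals. For the sum the ratio was 2203 in replicate 1 and 6200 in replicate 2, and the intervals do not overlap.

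The change of this ratio between the pools was compared directly in the tables of counts. For the acinar sum the odds ratio of replicate 2 over replicate 1 was 2.81 (exact 95% interval 1.64 to 4.91). It was 11.1 (2.41 to 103) for Mir216a, 2.73 (1.30 to 5.88) for Mir217 and 1.12 (0.294 to 3.71) for Mir216b. For Mir216b the interval included 1, so a change of its ratio to Mir375 was not detectable at this depth. These intervals cover counting error and hold no spread between pools.

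The pools were compared over every gene whose counts summed to 10 or more, by a two-sided exact binomial test with Benjamini-Hochberg adjustment. Calling a gene required an adjusted p below 0.05 together with a 2-fold ratio, a size of 1 on the log2(CPM + 1) scale. The test compares these libraries, not conditions. Of the 466 genes tested 27 were called, 5.79%, with 24 lower (5.15%) and 3 higher (0.644%) in replicate 2. All 4 members were tested and 1 was called, a count too small to read against that share.

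The called member was Mir216a, which fell by 1.13 on the log2(CPM + 1) scale in replicate 2 (exact binomial test, adjusted p = 0.0221). Added counts shrink ratios of such low genes: the ratio of the scaled counts was 0.163 (0.0176 to 0.747), from 11 and 2 counts. The call held in 7 alternative runs, among them TMM and DESeq2 size factors (log2 ratio -1.06 with each), and was lost in 3. It did not hold with 5 CPM added, where the log2 ratio was -0.37, or with all reads as the library total (-0.75). In both of these only the size limit was missed (exact binomial test, adjusted p = 0.0221 and 0.0233). Nor did it hold with edgeR's exact test, which takes the difference between the pools as spread (adjusted p = 0.543). Among the 81 genes with 13 to 33 summed counts, the range of the acinar genes, 5 were called lower and 0 higher.

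Mir217 had a log2 ratio of -0.43 (exact binomial test, adjusted p = 0.456) and Mir216b one of 0.36 (adjusted p = 0.587), and neither was called. As ratios of scaled counts they were 0.661 (0.307 to 1.39) and 1.61 (0.486 to 6.13). Both intervals include a 2-fold change in at least one direction. The acinar sum had a ratio of 0.641 (0.368 to 1.10), which also includes 1.

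Mir375 had a log2 ratio of 0.85, a ratio of 1.80 (1.79 to 1.82), below the 2-fold limit, so it was not called. The median tested gene stood at -0.11 with library totals. With DESeq2 size factors, and with edgeR's TMM, that median moved by 0.11 to near 0. Mir375 then came just past the limit at 1.01 and was called higher, so its call depended on the scaling. Both scalings gave 6 higher and 16 lower genes, or 27.3% higher calls against 11.1%. In edgeR's exact test Mir375 had an unadjusted p of 0.0603 and an adjusted p of 0.878, where 29 genes (6.22%) had an unadjusted p under 0.05 and 4 were called (0.858%).

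Among abundant genes the ratio of Mir375 between the pools lay at the upper end. Of the 99 genes with a mean of at least 1000 CPM, 0 had a higher log2 ratio. The next was Mir215, a miRNA of gut epithelium, at 0.48 (1689 and 2359 CPM), then Mir26b at 0.42 (27636 and 36995 CPM) and Mir342 at 0.42 (2827 and 3773 CPM). Among these 99 genes they are also the 3 nearest to Mir375 in ratio, by a measure that rests on 2 libraries. That follows from Mir375 having the highest log2 ratio of the 99. Of all 466 tested genes 6 had a log2 ratio above that of Mir375, all with means below 1000 CPM. In size, 2 of the 99 genes, both lower in replicate 2, exceeded the log2 ratio of Mir375. Among the 20 most abundant genes the SD of Mir375 was 40.5% of its mean. The median of the 20 was 6.41% and the highest after Mir375 was 20.5%, for Mir26b.

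**Figure D4:**
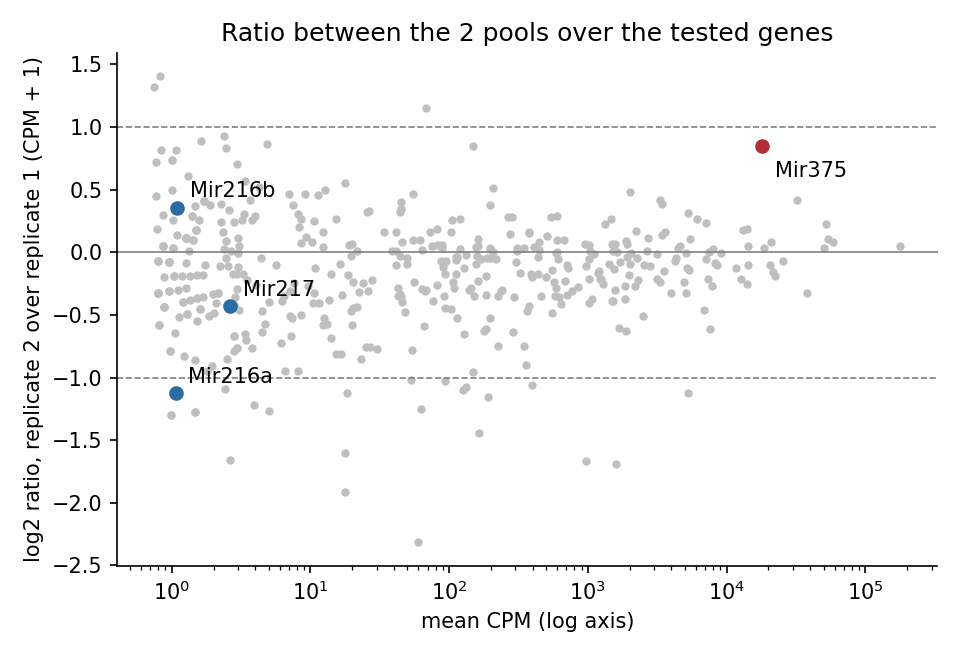
Log2 ratio of replicate 2 over replicate 1 on the CPM + 1 scale against mean CPM (log axis) for the 466 tested genes (grey), with Mir375 (red) and the acinar genes (blue); dashed lines mark a 2-fold change. Mir375 lies at 0.85, with 0 of the other genes of at least 1000 CPM above it, and Mir216a at -1.13.

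The spread between the pools moved Mir375 past several genes of similar level. Directly above it by mean CPM stood Mir429 at 18732 ± 337, Mir322 at 20626 ± 1030 and Mir23b at 20896 ± 859 (SD, n = 2). Directly below stood Mir23a at 14218 ± 683, Mir200c at 14202 ± 326 and Mir99b at 14101 ± 1270. In replicate 1 Mir375 was below all 6 and in replicate 2 above all 6. Its place among them was therefore not resolved beyond its spread.

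The acinar genes had neighbours of equally few counts. Beside Mir217 stood Mir3547 (16 and 18 counts), Mir1982 (18 and 17), Mir1943 (27 and 5) and Mir1927 (13 and 20). Beside Mir216a and Mir216b stood Mir3073a (3 and 11 counts), Mir344e (6 and 8), Mir8098 (8 and 6), Mir6909 (9 and 4) and Mir5114 (7 and 6). Mir1943 was split between the pools more than Mir216a on the log2(CPM + 1) scale, by -1.66, and Mir3073a the other way, by 0.82. That scale shrinks ratios more at the lower counts of Mir216a, so it does not order Mir1943 and Mir216a by the ratio of scaled counts.

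The shares of the acinar genes within their sum had wide intervals, which overlapped between the pools for each gene. Mir216a made up 31.4% of the acinar counts in replicate 1 (16.9 to 49.3) and 8.0% in replicate 2 (0.984 to 26.0). Mir216b made up 14.3% (4.81 to 30.3) and 36.0% (18.0 to 57.5). Mir217 held the largest share in both, 54.3% (36.6 to 71.2) and 56.0% (34.9 to 75.6). Of the 3 pairs, the ratio of Mir216a to Mir216b was 2.20 in replicate 1 and 0.222 in replicate 2, the latter from 2 counts of Mir216a (odds ratio 0.112, exact 95% interval 0.00864 to 0.816). The intervals of Mir216a to Mir217 (0.0237 to 1.45) and of Mir216b to Mir217 (0.569 to 11.3) included 1. The 3 intervals were not adjusted for their number.

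No counts on the opposite strand were found at any of the 4 genes in either library. Mir216c overlaps Mir216b on the other strand (28746198 to 28746266). It is not a row of the tables, and the opposite-strand counts at Mir216b were 0 in both libraries, which allows up to 0.501 and 0.449 CPM there.

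Most other miRNA genes known from islet and neuroendocrine cells had mean levels between those of Mir375 and the acinar genes. Mir9-2 did not, and Mir9-3 was above Mir217 by mean but tied with it in replicate 1 (19 counts each). Of 8 such genes 7 were listed, 6 had at least 10 counts in both pools, and Mir9-2 had none in either. They summed to 864 CPM in replicate 1 and 910 CPM in replicate 2, so Mir375 was 14.9 and 25.5 times their sum. Mir7b, a miRNA of endocrine and neural cells, led with 601 ± 28.5 CPM (SD, n = 2). It was followed by Mir7-1 at 206 ± 0.0384, Mir7-2 at 45.3 ± 9.03 and Mir153 at 24.0 ± 2.95 CPM. Mir184 stood at 7.15 ± 1.22 CPM and Mir9-3, at 2.93 ± 0.337 CPM (19 and 18 counts), near Mir217. Of the 6 tested, 0 were called, with a median log2 ratio of -0.09. Over all tested genes 5.79% were called, and a list of 6 is too small to read against that share. Mir7-1 and Mir7-2 give the same 5p sequence, and the Mir9 genes are copies too, so reads shared between copies may be missing and these levels may be too low.

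Epithelial genes differed less between the pools than Mir375 did in log2 ratio, in each of the lists below. The 5 glandular gut genes, Mir215, Mir192, Mir148a (also abundant in pancreas), Mir194-2 and Mir194-1, summed to 5211 and 5860 CPM, with 0 of 5 called and a median log2 ratio of 0.01. Reads matching several places, such as any shared by Mir194-1 and Mir194-2, are not in this sum, which may be too low. The 5 genes of the miR-200 family, which mark epithelium in general, summed to 43502 and 43188 CPM, with 0 of 5 called. Mir203, Mir205 and Mir31 of stratified epithelium summed to 17737 and 12273 CPM, with 0 of 3 called and log2 ratios from -0.62 to -0.20. Over all tested genes 5.79% were called, so 0 calls in lists of 3 or 5 genes do not set these genes apart. Mir375 was 0.296 and 0.538 times the summed miR-200 genes, and 0.726 and 1.89 times the stratified genes. Mir375 thus lay below the stratified sum in one pool and above it in the other.

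Of the markers of tissues next to the stomach, or carried in it, Mir122 was called under each scaling listed (library totals, TMM and DESeq2 size factors). Mir122, the main miRNA of hepatocytes, was lower in replicate 2 (2445 and 757 CPM) and was called. The 3 red blood cell genes Mir451a, Mir144 and Mir486 summed to 727 and 345 CPM, with 3 of 3 called lower, though with TMM and with DESeq2 size factors all 3 came inside the 2-fold limit. The white blood cell genes Mir223, Mir155 and Mir150 summed to 1374 and 1208 CPM, with 0 of 3 called. Over all tested genes 5.79% were called with library totals, and 5.15% were called lower. A list of 3 with 0 called is too small to read against that share. The smooth muscle genes Mir143 and Mir145a summed to 178423 and 183398 CPM. The part of liver, blood or stratified epithelium in the pools' differences at Mir375 and Mir216a was not tested.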

How the data were processed

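The authors deposited 1 table per library of whole-number read counts per miRNA gene, with mm10 and GENCODE M4 named in their description files. The aligner and the counter are not given in the sources used. No header names the columns: the first count column equals the sum of the other 2 in every gene row, the second was taken as sense and used, the third as opposite strand. Lines that name no gene (multi-mapping, unmapped at 18.0% and 16.2%, no feature at 2.92% and 2.26% of 11558785 and 12633753 reads) were left out of library totals and tests.

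Identifiers without version were matched to GENCODE M21 (1894 of 1973). Sequences are from RefSeq GRCm38.p6. Levels are CPM with mean and SD over 2 separate pools; ratios between pools use log2(CPM + 1) unless scaled counts are named. The quasi-likelihood test has no residual degrees of freedom here, so edgeR's exact test with a common dispersion (coefficient of variation 0.219) was an alternative. Members and lists were chosen with earlier results of these data known. Named besides the members were the 3 genes on either side of Mir375 and 2 of each acinar gene in mean CPM, the 3 of at least 1000 CPM nearest to Mir375 in ratio, and up to 4 genes of each list. Mir9-1, Mir142 and Mir216c are not analysed here. Mir184, Mir9-3, Mir9-2 and Mir194-1 are on the lists but outside the 4 named by this rule, and were named once their values had been seen.

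On simulated counts (counting noise only, 471 genes tested) the binomial test called 83.2% of genes with a log2 change of 1.5, 99.0% of those with a change of 3, and 0.361% of unchanged genes. The simulated pools had no spread between them beyond counting, unlike the real pools. Changes were given to none of the most abundant genes, Mir375 among them. These shares run over all levels and are not those at the few counts of the acinar genes. Software was edgeR 4.0.16 and DESeq2 1.42.0 under R 4.3.3, with scipy 1.17.1, numpy 2.4.6 and pandas 2.3.3 under Python 3.11.15. Plots were made in matplotlib 3.10.9.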

Additional observations from a re-analysis of the deposited data

Results flagged for a closer look

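Opposite-strand counts, which the comparisons do not use, stood above the limit of 3 counts at 2 genes of the marker lists. At Mir203 there were 28 in replicate 1 and 63 in replicate 2. At Mir486 there were 12 in replicate 1 and 8 in replicate 2.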

How the results depend on the processing

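No alternative run turned the direction of a result. This says little for counts of both strands, since the 4 genes have no opposite-strand counts, and for levels and log2 ratios without a replicate, which with 2 libraries stay within 1 SD of the mean by construction. With all reads as the library total, the levels were 9470 for Mir375, 0.572 for Mir216b and 1.38 for Mir217, lower by construction, and the Mir216a log2 ratio was -0.75. With 5 CPM added that ratio was -0.37, the mean log2 ratio of Mir375 to the acinar sum was 10.79 in place of 11.85, and 13 genes were called in place of 27. With Mir216a or Mir216b alone as the denominator the mean log2 ratio was 14.51 and 13.99, larger by construction. The odds ratio with Mir216b alone was 1.12. The Mir375 log2 ratio was 1.01 with TMM and with DESeq2 size factors, and Mir375 was called with both, unlike with library totals. edgeR's exact test, whose use for single members was chosen after seeing the data, gave -2.54 for Mir216a, no longer called, and called 4 genes. Called genes were 16 with a minimum of 100 summed counts (fewer genes tested) and 216 with no fold limit. Leaving out either replicate gave 12876 to 23221 CPM for Mir375, 0.300 to 1.84 for Mir216a, 0.835 to 1.35 for Mir216b and 2.10 to 3.17 for Mir217. It gave a log2 ratio to the acinar sum of 11.11 to 12.60, and ranks of 9 to 19 for Mir375, 379 to 532 for Mir216a, 392 to 457 for Mir216b and 340 to 358 for Mir217. Adding Mir216c to the acinar sum was not run, since it is not a row of the tables, and with a minimum of 100 the acinar genes had no value. No paired analysis was possible because both libraries belong to 1 group. Depth limits the acinar genes, at 2 to 19 counts a library.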
